A study of Mus musculus with 8 samples.

Results

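The genes described here are the 7 members of the Fos and Jun families, Fos, Fosb, Fosl1, Fosl2, Jun, Junb and Jund, among 19938 genes measured on the same arrays. They were chosen by gene symbol in the platform annotation, and each had 1 transcript cluster (the array's unit of measurement for a gene). The RNA came from hippocampal neurons of E17.5 mouse embryos (late gestation) of the outbred ICR strain, grown for 10 days before 50 µM bicuculline was given. This drug is an antagonist of the GABA-A receptor, the main inhibitory receptor of these cells, and removing that inhibition makes the cultured network fire more. The times were 0, 30, 180 and 300 min, with 2 biological replicates each, for 8 Affymetrix Mouse Gene ST 1.0 arrays in all. The labels name no culture that was kept for the later times without bicuculline, so time in culture and bicuculline cannot be told apart. They also do not say whether replicates came from separate dissections, so that the p-values reflect only how much these arrays differ, which may be technical.

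Fos and Jun proteins are the subunits of the transcription factor AP-1. Fos proteins bind DNA as heterodimers with a Jun protein through a leucine zipper, whereas Jun proteins can also pair with each other, and the dimers recognise the AP-1 site. In neurons, calcium entry during firing activates kinases that switch on several of these genes without new protein synthesis, and Fos is widely used as a mark of recently active cells.

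The promoters of 6 members were found in the RefSeq promoter table (assembly GRCm38.p6), and Fosl1 was not matched. The windows below are shown for the 4 genes with their highest mean signal at 30 min and the largest differences from 0 min at that time (Fos, Fosb, Jun and Junb) and for Fosl2, which rose only by the later times. Each runs from 250 bases before to 50 bases after the annotated start, 5′ to 3′. Capitals mark matches on either strand to the 7 motifs searched.
Fos, chr12:85473640-85473939, plus strand: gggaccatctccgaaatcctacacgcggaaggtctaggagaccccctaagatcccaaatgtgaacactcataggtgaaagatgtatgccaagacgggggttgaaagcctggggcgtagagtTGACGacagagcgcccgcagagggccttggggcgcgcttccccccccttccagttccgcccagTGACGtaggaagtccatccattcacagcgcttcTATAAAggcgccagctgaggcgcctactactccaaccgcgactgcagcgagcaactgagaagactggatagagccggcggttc
Fosb, chr7:19309996-19310295, minus strand: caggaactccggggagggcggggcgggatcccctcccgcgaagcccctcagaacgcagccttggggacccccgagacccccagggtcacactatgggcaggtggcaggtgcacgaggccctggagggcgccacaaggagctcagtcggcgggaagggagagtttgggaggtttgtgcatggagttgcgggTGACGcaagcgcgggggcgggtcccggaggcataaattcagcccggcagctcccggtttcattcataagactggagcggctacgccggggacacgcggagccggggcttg
Jun, chr4:95052173-95052472, minus strand: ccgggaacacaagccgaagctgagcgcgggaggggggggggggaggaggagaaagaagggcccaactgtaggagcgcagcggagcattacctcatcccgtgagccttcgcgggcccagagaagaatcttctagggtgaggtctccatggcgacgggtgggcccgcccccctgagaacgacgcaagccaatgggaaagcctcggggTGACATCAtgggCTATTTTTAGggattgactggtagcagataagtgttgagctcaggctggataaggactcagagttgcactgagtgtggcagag
Junb, chr8:84978699-84978998, minus strand: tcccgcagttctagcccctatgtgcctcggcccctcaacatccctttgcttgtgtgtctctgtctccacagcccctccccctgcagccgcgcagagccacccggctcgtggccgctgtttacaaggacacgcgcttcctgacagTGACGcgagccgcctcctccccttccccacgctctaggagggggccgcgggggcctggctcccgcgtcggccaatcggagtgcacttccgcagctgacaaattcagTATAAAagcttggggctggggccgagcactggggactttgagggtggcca
Fosl2, chr5:32136222-32136521, plus strand: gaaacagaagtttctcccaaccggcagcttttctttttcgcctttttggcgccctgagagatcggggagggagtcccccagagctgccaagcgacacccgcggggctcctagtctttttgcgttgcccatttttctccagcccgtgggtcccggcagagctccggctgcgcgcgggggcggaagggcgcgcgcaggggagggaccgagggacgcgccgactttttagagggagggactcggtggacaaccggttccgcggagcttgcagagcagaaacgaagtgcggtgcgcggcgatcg
The motifs were the cAMP response element (TGACGTCA) and its core TGACG, the AP-1 site (TGACTCA), a variant of it (TGACATCA), a site for MEF2 factors (the last run of capitals in the Jun window), the CArG box bound by serum response factor, and the TATA box (TATAAA). The core TGACG, which lies within the whole element, was matched 2 times in Fos, 66 and 129 bases before the start, and 1 time each in Fosb (60 bases before) and Junb (106 bases before). That core was present in 20.8% of all 32851 promoters. Fos also had a TATA box 33 bases before its start, and Junb had the same letters at its annotated start; 13.6% of promoters held them. The Jun window held TGACATCA 45 bases before the start, as did 3.62% of promoters, and the MEF2 letters 33 bases before it, as did 0.11%. Both were searched as fixed letters, which are those of the Jun window. The shares therefore leave out other forms of these sites and do not show how rare the sites are. The Fosl2 window held none of the 7, and no window held TGACGTCA (1.79% of promoters), TGACTCA (5.2%) or a CArG box (1.63%). A match is a match of letters only, and the windows do not cover more distant elements.

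All 7 genes had a mean log2 signal above 4.46, the level that 95% of the 1027 olfactory receptor genes stayed under, which served as a mark of background. So did 13601 of all 19938 genes. Array medians ran from 4.84 to 4.88, and replicate arrays correlated at r = 0.985 to 0.990 across all rows. The 7 general neuronal markers had mean signals between 8.06 and 11.57 and all lay above background, as did all 5 markers of excitatory hippocampal neurons and all 3 of inhibitory neurons. Of the glial and other markers, 6 of 6 astrocyte, 4 of 5 oligodendrocyte, 3 of 6 microglial, 3 of 5 endothelial and 3 of 5 fibroblast genes lay above background. Astrocyte list means were 6.36 to 6.57 over the times and fibroblast list means 5.62 to 5.69, with fibroblast gene means from 3.28 to 8.06. Oligodendrocyte list means were 4.85 to 5.03, while microglial and endothelial list means, 4.50 to 4.68, lay near the mark. Since 13601 of all 19938 genes lay above it, these counts alone do not show RNA of other cells. The mean of a marker list moved by 0.07 (fibroblast) to 0.26 (excitatory neuron) on the log2 scale between its lowest and highest time, and the part of such shifts in the results was not tested. Among all marker genes measured, Prox1 of the excitatory list alone passed the F test (limma adjusted p = 0.00531), with mean log2 signals of 5.999, 6.15, 5.41 and 5.34 at 0, 30, 180 and 300 min; it is named because it passed. In such bulk RNA, a change in the number of cells of a type and a change in RNA per cell cannot be told apart.

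Over the 4 times, 5 of the 7 genes varied (limma F test, adjusted p under 0.05), against 0.813% of all genes. The adjusted p was 1.32e-05 for Fos, 3.15e-05 for Fosb, 0.00243 for Fosl2, 0.00297 for Jun and 0.00353 for Junb. Jund (adjusted p = 0.553) and Fosl1 (0.946) did not pass. The means of the 5 genes followed different courses, which the plot of signals by array shows. Fos, Jun and Junb were highest at 30 min and lower afterwards, and Fosl2 was high only at 180 and 300 min. The Fosb arrays of 30, 180 and 300 min overlapped. Its differences from 30 min did not pass, but their intervals reached −0.72 at 180 min and −0.69 at 300 min, so a fall was not excluded.

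**Figure D1:**
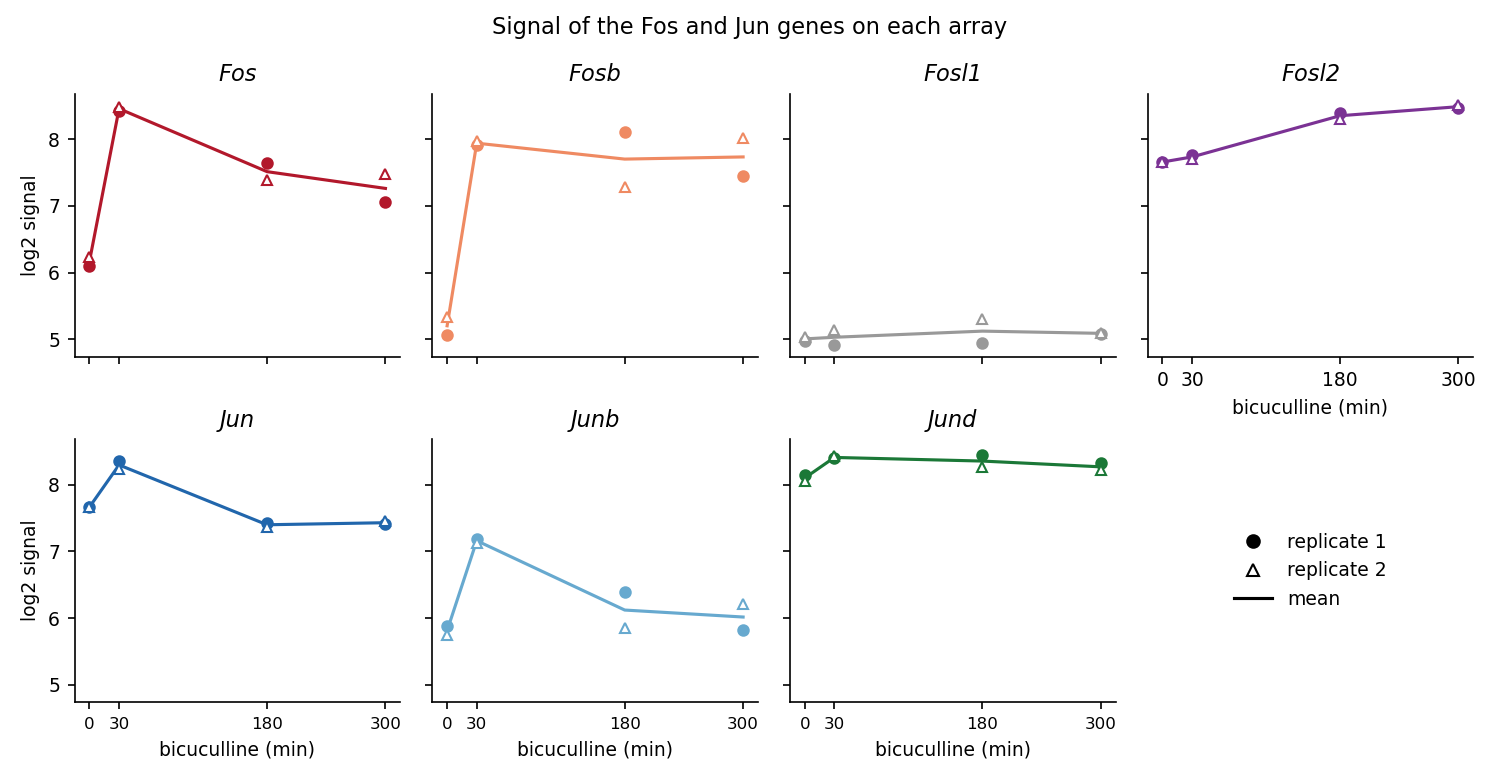
Log2 signal (vertical axis) of each Fos and Jun gene at 0, 30, 180 and 300 min of bicuculline (horizontal axis), with replicate 1 as filled circles, replicate 2 as open triangles and a line through the means. Fos goes through 8.46 at 30 min and 7.26 at 300 min, Fosb is at 7.94 and 7.74 at those times, and Fosl2 is at 7.74 and 8.49.

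Fos, the founding member of the family and a partner of all Jun proteins, had log2 signals of 6.11 and 6.23 at 0 min, 8.43 and 8.49 at 30 min, 7.65 and 7.38 at 180 min and 7.05 and 7.47 at 300 min. Every array of a later time lay above both 0 min arrays, and both 30 min arrays lay above all others. At 30 min the signal was 4.88-fold above that at 0 min (log2 change 2.29 ± 0.15 SE, limma adjusted p = 2.02e-06), the fourth largest of 19938 increases. At 180 min it was 1.92-fold lower than at 30 min (log2 change −0.94, 95% confidence interval −1.26 to −0.63) and still 2.54-fold above 0 min (1.34 ± 0.15 SE). At 300 min it was 2.13-fold above 0 min (1.09 ± 0.15 SE, limma adjusted p = 0.00452), and it differed from 180 min by −0.25 (interval −0.57 to 0.07), which did not pass and ran from −0.46 (without replicate 2 of 300 min) to −0.04 (without replicate 1 of 300 min) with each array left out. The order of the levels was therefore 30, 180, 300 and 0 min, and 180 and 300 min, whose arrays overlapped, were not separated.

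Fosb encodes a protein close to Fos, and a shorter splice form, known as delta-FosB, lacks the end of the protein and accumulates with repeated stimulation; the single transcript cluster does not separate the forms. Its log2 signals were 5.07 and 5.34 at 0 min, 7.91 and 7.97 at 30 min, 8.11 and 7.29 at 180 min and 7.45 and 8.02 at 300 min. The arrays of the 3 later times overlapped with each other, and all lay above both 0 min arrays. The increase over 0 min was 6.67-fold at 30 min (log2 change 2.74 ± 0.22 SE), 5.65-fold at 180 min (2.50 ± 0.22) and 5.78-fold at 300 min (2.53 ± 0.22, limma adjusted p = 9.27e-05). It ranked second among all increases at 30 min and first at both later times. The differences of 180 and 300 min from 30 min were −0.24 (interval −0.72 to 0.24) and −0.21 (−0.69 to 0.27), and neither passed.

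The courses of Fosb and Fos were compared within each array, as the log2 signal of Fosb minus that of Fos, whose change over time can be read although its absolute value depends on the probes. The difference was −1.04 and −0.90 at 0 min, −0.52 and −0.52 at 30 min, 0.47 and −0.09 at 180 min and 0.40 and 0.54 at 300 min. All 4 arrays of 180 and 300 min lay above both 30 min arrays, by 0.85 on average. With 4 arrays against 2, an exact two-sided permutation test (the one-sided p doubled) gave p = 0.133, the smallest that this test can give over its 15 arrangements, so the test could not reach 0.05 here.

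**Figure D2:**
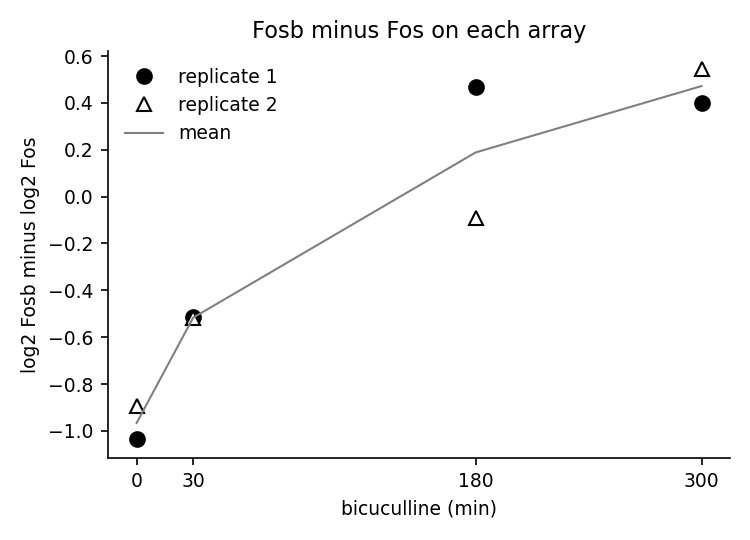
Log2 signal of Fosb minus that of Fos (vertical axis) on each array by time of bicuculline in min (horizontal axis), with replicate 1 as filled circles, replicate 2 as open triangles and a line through the means. The 4 arrays of 180 and 300 min lie between −0.09 and 0.54, above the 30 min arrays at −0.52.

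Fosl2, also called Fra-2, is a Fos relative without the strong activation domain of Fos. Its log2 signals were 7.65 and 7.66 at 0 min, 7.77 and 7.70 at 30 min, 8.40 and 8.31 at 180 min and 8.47 and 8.51 at 300 min. The arrays fell into a low pair of times, 0 and 30 min, and a high pair, 180 and 300 min, which did not overlap. At 30 min Fosl2 was 0.08 ± 0.11 (SE) above 0 min, which did not pass. It was 1.62-fold above 0 min at 180 min (log2 change 0.69 ± 0.11 SE, limma adjusted p = 0.0240) and 1.78-fold at 300 min (0.83 ± 0.11, adjusted p = 0.00482). Against 30 min the increases were 1.53-fold at 180 min and 1.69-fold at 300 min, and both passed. The step between 180 and 300 min was 0.14 (interval −0.11 to 0.38) and did not pass.

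Fosl1, or Fra-1, is best known as a late AP-1 gene of growing and migrating cells. Its log2 signal ranged from 4.92 to 5.31 over the 8 arrays, close to background, and none of its 6 comparisons passed. The largest was 0.12 at 180 min against 0 min (interval −0.18 to 0.41), so a change of the size seen for Fosl2 lay outside the interval of this comparison.

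Jun, the subunit phosphorylated by the JNK kinases, had log2 signals of 7.66 and 7.67 at 0 min, 8.36 and 8.24 at 30 min, 7.43 and 7.37 at 180 min and 7.41 and 7.45 at 300 min. The 4 arrays of 180 and 300 min lay below both 0 min arrays. At a single time, both arrays lay below both 0 min arrays in 22.6% (180 min) and 19.6% (300 min) of all genes. Both 30 min arrays of Jun lay above every other array. The 1.55-fold difference of 30 min from 0 min (log2 change 0.63 ± 0.12 SE, interval 0.38 to 0.88) had a limma adjusted p of 0.0805 and did not pass. It passed in 3 of 16 alternatives, namely after quantile normalization (0.0470), without dim genes (0.0399) and with a variance prior that followed signal (0.0165), and the adjusted p in the others reached 0.995 (without replicate 1 of 30 min). Against 30 min, Jun was 1.86-fold lower at 180 min (−0.90 ± 0.12 SE, limma adjusted p = 0.00227) and 1.82-fold lower at 300 min (−0.87 ± 0.12, adjusted p = 0.00176). Its values at 180 and 300 min were −0.27 (interval −0.51 to −0.02) and −0.23 (−0.48 to 0.01) relative to 0 min, with adjusted p of 0.357 and 0.585.

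Junb, which activates transcription less strongly than Jun at many promoters, had log2 signals of 5.88 and 5.75 at 0 min, 7.19 and 7.13 at 30 min, 6.39 and 5.85 at 180 min and 5.82 and 6.21 at 300 min. Both 30 min arrays stood above all others, while the arrays of 180 and 300 min overlapped with those of 0 min. The signal at 30 min was 2.54-fold above 0 min (log2 change 1.35 ± 0.17 SE, limma adjusted p = 0.00234). It was 2.06-fold lower at 180 min than at 30 min (−1.04 ± 0.17, adjusted p = 0.0137) and 2.21-fold lower at 300 min than at 30 min (−1.14 ± 0.17, adjusted p = 0.00470). The differences from 0 min that remained, 0.31 (interval −0.06 to 0.67) at 180 min and 0.20 (−0.16 to 0.57) at 300 min, did not pass. They rested on single arrays: with each array left out in turn they ran from 0.04 (without replicate 1 of 180 min) to 0.58 (without replicate 2) at 180 min, and from 0.0085 (without replicate 2 of 300 min) to 0.40 (without replicate 1) at 300 min.

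Jund is expressed in most resting cells. Its log2 signals were 8.14 and 8.06 at 0 min, 8.39 and 8.43 at 30 min, 8.45 and 8.26 at 180 min and 8.32 and 8.22 at 300 min. All 6 later arrays lay above both 0 min arrays. At a single time, both arrays lay above both 0 min arrays in 19.2% (30 min), 21.1% (180 min) and 18.8% (300 min) of all genes. The share for all later times together was not counted. No comparison of Jund passed. The difference from 0 min was 0.31 (interval 0.05 to 0.57, limma adjusted p = 0.910) at 30 min, 0.25 at 180 min and 0.17 at 300 min.

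Counted over the family, 3 of 7 genes rose at 30 min against 0 min (Fos, Fosb and Junb, limma adjusted p under 0.05) and none fell, while 0.0802% of all genes rose and 0.015% fell. Both arrays of 30 min lay above both of 0 min for 6 of 7 members, all but Fosl1, against 19.2% of all genes. When every row of the table was tested, Fos and Fosb kept the call and Junb lost it (adjusted p = 0.274). Junb also lost it without replicate 2 of 0 min (0.0713) or replicate 1 of 30 min (0.0608).

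At 180 min against 0 min, 3 of 7 rose (Fos, Fosb and Fosl2) and none fell, while 0.211% of all genes rose and 0.12% fell. That background was 42 genes higher and 24 lower, 48 and 17 after quantile normalization, and 31 and 30 with arrays centred on their medians. Both later arrays lay higher for 4 members (21.1% of all genes) and lower for Jun (22.6%). At 300 min against 0 min the same 3 members rose and none fell, while 0.226% of all genes rose and 0.0602% fell. Both arrays lay higher for 5 members (18.8% of all genes) and lower for Jun (19.6%). With every row tested the adjusted p at 180 and 300 min were 0.113 and 0.116 for Fosb, 0.122 and 0.266 for Fos, and 0.260 and 0.187 for Fosl2, so all 6 calls were lost. With each array left out in turn, the change of Fosl2 at 180 min stayed between 0.65 and 0.74, and it was 0.69 without either array of 30 min. Its call was also lost without either array of 0 or 30 min or replicate 1 of 180 min, and with only the 2 times compared (limma adjusted p = 0.0722). At 300 min the change of Fosl2 stayed between 0.81 and 0.85, and its call was lost without either array of 0 min. The change of Fos at 300 min ran from 0.88 to 1.30, and its call was lost without replicate 1 of 0 min.

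Fos, Jun and Junb fell and Fosl2 rose at 180 min against 30 min, where 0.331% of all genes rose and 0.171% fell. The same 3 fell and the same 1 rose at 300 min against 30 min, where 0.637% rose and 0.181% fell. With every row tested all 8 of these calls were lost, with adjusted p between 0.0549 (Jun at 300 min) and 0.252 (Junb at 180 min). Without replicate 1 of 30 min, the calls at 180 min were lost for all 4 genes (Fos 0.116, Fosl2 0.251, Jun 0.0660 and Junb 0.182), and those at 300 min for Fosl2 (0.0634), Jun (0.0501) and Junb (0.0768). Without replicate 2 of 30 min, Fos (0.132), Fosl2 (0.228) and Junb (0.121) lost the call at 180 min and Fosl2 (0.0711) at 300 min. Without replicate 2 of 180 min, Fos (0.0829), Fosl2 (0.0708) and Junb (0.0906) lost it, Fosl2 lost it without replicate 1 of 180 min (0.151) and with only the 2 times compared (0.0689), and Junb lost the call at 300 min without replicate 1 of that time (0.0857).

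Between 180 and 300 min none of the 7 passed, and 0% of all genes were called (limma, smallest adjusted p = 0.529). The interval of Fosb, −0.45 to 0.51, left room for a change in either direction. At an unadjusted limma p under 0.05, 1141 of 19938 genes and 0 of 7 members differed. With so small a share of all genes, 0 of 7 members is not informative. The plot of changes shows the 6 comparisons side by side.

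**Figure D3:**
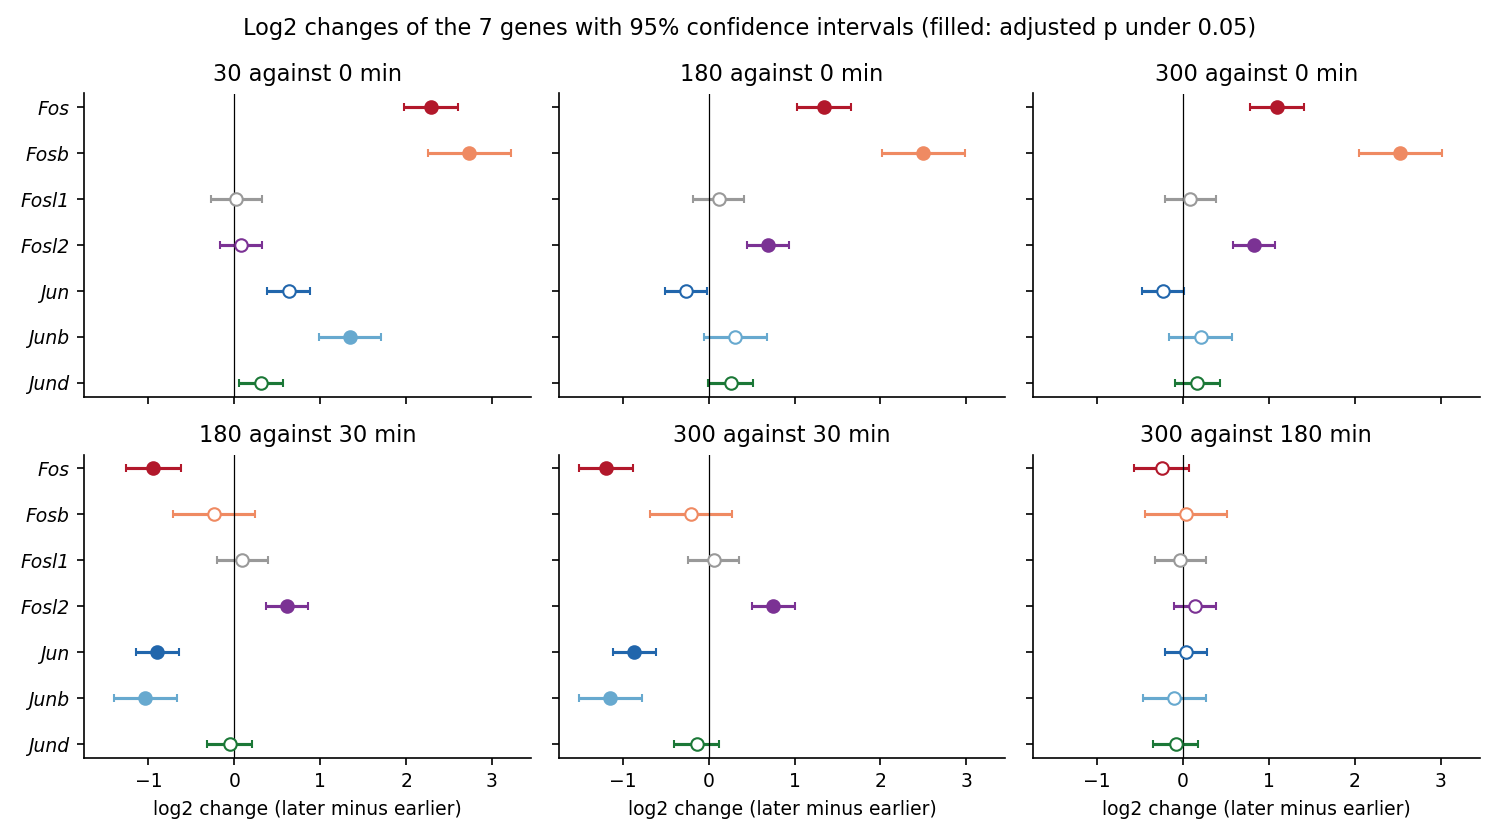
Log2 change, later minus earlier time (horizontal axis), of the 7 genes in the 6 comparisons between times, with 95% confidence intervals of the limma fit; filled points have an adjusted p under 0.05. Fos, Fosb and Junb are filled at 30 against 0 min, Fos, Fosb and Fosl2 at 180 and 300 against 0 min, and no gene at 300 against 180 min.

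Among the 7 genes, the replicates of 180 and of 300 min differed most for Fosb. Replicate 1 minus replicate 2 at 180 min was 0.82 for Fosb, 0.54 for Junb and 0.26 for Fos, and at 300 min it was −0.56 for Fosb, −0.42 for Fos and −0.39 for Junb. The sign was thus opposite at the 2 times for all 3. Fosl1, at low signal, differed by −0.37 at 180 min. At 180 min a gap at least as large as that of Fosb was seen in 0.341% of all genes, and as that of Junb in 2.45%. At 300 min the gap of Fosb was reached by 1.69% of genes, that of Fos by 5.83% and that of Junb by 7.46%. At 30 min the gaps of these 3 genes were 0.06 in size, and 70 to 72.6% of all genes had a gap at least as large. Jun and Fosl2 had gaps of at most 0.12 at every time.

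**Figure D4:**
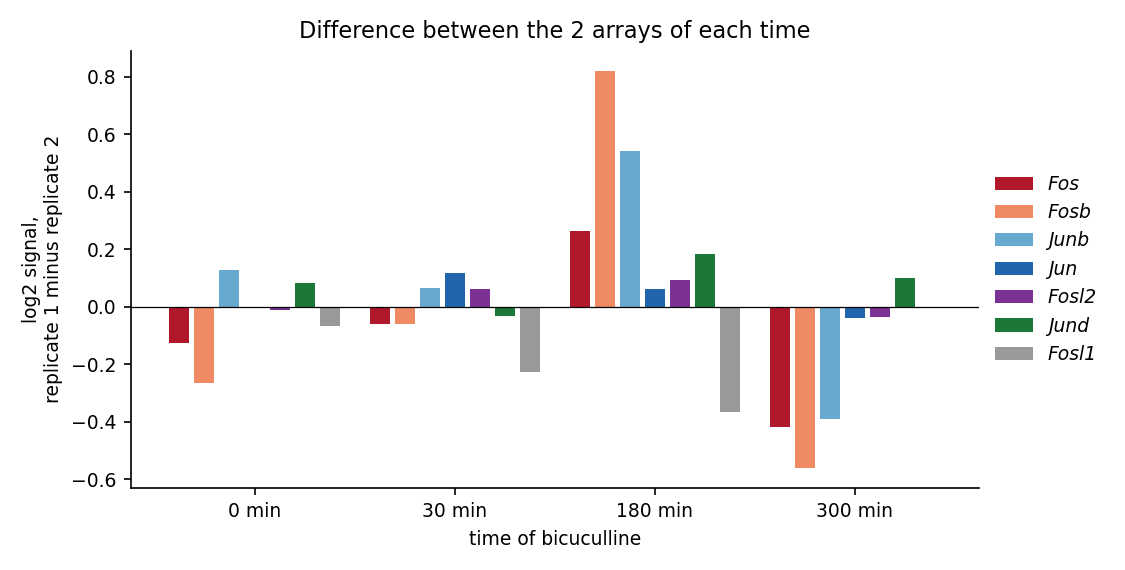
Log2 signal of replicate 1 minus replicate 2 (vertical axis) for the 7 genes, with 1 bar per gene, at each time of bicuculline (horizontal axis). The bars of Fosb, Junb and Fos are above 0 at 180 min (0.82, 0.54 and 0.26) and below 0 at 300 min.

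The genes whose signal followed each member most closely over the 8 arrays were taken from 153 named genes that passed the F test. The coefficients are a description, since the arrays share 4 times and the genes were chosen for varying with time. For Fos they were the activity-dependent transcription factor gene Npas4 (Pearson r = 0.981), the orphan nuclear receptor gene Nr4a1 (0.979) and the stress-response gene Gadd45g (0.957), and for Fosb Mir212 (0.923), Nr4a1 (0.862) and Gadd45b (0.833). Jun was followed by the zinc finger factor gene Egr1 (0.988), Ier2 (0.965) and Egr2 (0.960), and Junb by Egr4 (0.985), the ERK phosphatase gene Dusp6 (0.950) and Gadd45g (0.950). The closest to Fosl2 were the receptor gene Gpr3 (0.997), the cyclin F gene Ccnf (0.991) and the circadian clock gene Per1 (0.990). No gene was named for 2 members other than Nr4a1 (Fos and Fosb) and Gadd45g (Fos and Junb).

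Other proteins with a basic leucine zipper compete for Fos and Jun or pair with them, and 16 of 17 listed genes of this kind were measured. At 30 min against 0 min none passed (median log2 change 0.06, against 0.0006 for all genes), at 180 min Atf3 rose (median 0.02, against −0.0007 for all genes), and at 300 min Atf3 and Maff rose (median 0.01, against −0.0025). Of all genes, 0.0802% rose at 30 min, 0.211% at 180 min and 0.226% at 300 min. Atf3, a stress-induced factor that binds Jun, had log2 signals of 4.79 and 5.02 at 0 min, 5.48 and 5.38 at 30 min, 6.15 and 5.81 at 180 min and 5.54 and 6.22 at 300 min. Its later arrays all lay above 0 min, and it was 2.11-fold above 0 min at 180 min (log2 change 1.08 ± 0.19 SE, limma adjusted p = 0.0348) and 1.97-fold at 300 min (0.98 ± 0.19, adjusted p = 0.0497). Maff, a small Maf protein without an activation domain, was 1.72-fold above 0 min at 300 min (0.79 ± 0.14 SE, limma adjusted p = 0.0326) and 0.61 ± 0.14 above it at 180 min, which did not pass. With each array left out, the change of Atf3 at 180 min ran from 0.91 to 1.25. Its call there was lost without either array of 0 or 30 min or replicate 1 of 180 min. At 300 min the change of Atf3 ran from 0.63 (without replicate 2 of 300 min) to 1.32, and its call was lost without any array but replicate 1 of 300 min. The change of Maff at 300 min ran from 0.63 to 0.94, and its call was lost without either array of 0 or 30 min or replicate 2 of 300 min.

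Of 27 listed kinases and factors upstream of Fos and Jun, 21 were measured, and Rps6ka5 alone passed in a comparison with 0 min. It encodes the kinase MSK1, which phosphorylates CREB and histone H3. Its log2 signals were 6.76 and 6.67 at 0 min, 6.57 and 6.48 at 30 min, 6.09 and 6.04 at 180 min and 5.87 and 6.06 at 300 min, and all later arrays lay below both 0 min arrays. The change was −0.65 ± 0.12 (SE, limma adjusted p = 0.0420) at 180 min and −0.75 ± 0.12 (adjusted p = 0.0160) at 300 min. The medians of the list were −0.07, −0.12 and −0.05 at 30, 180 and 300 min against 0 min. Of all genes, 0.12% fell at 180 min and 0.0602% at 300 min. With each array left out, the change of Rps6ka5 ran from −0.70 to −0.61 at 180 min and from −0.84 to −0.66 at 300 min. The call at 180 min was lost without each of the 8 arrays in turn, after quantile normalization (limma adjusted p = 0.0533) and with only the 2 times compared (0.0906). The call at 300 min was lost without either array of 0 min or replicate 1 of 300 min.

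For decay of AU-rich mRNAs and turnover of Fos and Jun proteins, 12 symbols were listed and 11 genes were measured. None passed against 0 min, and the list medians were −0.05, −0.09 and −0.05. Of all genes, at most 0.226% were called in 1 direction in these comparisons, so 0 of 11 is not informative. The list genes with the smallest F test p were Fbxw7, whose ubiquitin ligase targets phosphorylated Jun (−0.34 ± 0.14 SE at 30 min, limma adjusted p = 0.938, and −0.11 with its clusters averaged), and Zfp36, whose product tristetraprolin binds AU-rich mRNAs (0.05 ± 0.13 at 30 min and −0.22 ± 0.13 at 300 min).

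Of 19 genes described elsewhere as AP-1 targets, 18 were measured and 1 rose, the enkephalin precursor gene Penk. It had log2 signals of 5.58 and 5.64 at 0 min, 5.55 and 5.28 at 30 min, 6.23 and 6.65 at 180 min and 6.69 and 6.40 at 300 min. The signals of 180 and 300 min did not overlap with the earlier ones, and the increase over 0 min was 1.78-fold at 180 min (log2 change 0.83 ± 0.16 SE, limma adjusted p = 0.0420) and 1.91-fold at 300 min (0.93 ± 0.16, adjusted p = 0.0225). The medians of the list were −0.02, 0.02 and −0.12 at 30, 180 and 300 min. Of all genes, 0.211% rose at 180 min and 0.226% at 300 min against 0 min. With each array left out, the change of Penk ran from 0.62 to 1.04 at 180 min and from 0.78 to 1.08 at 300 min. Its call at 180 min was lost without each array but replicate 1 of 180 min, with arrays centred on their medians (limma adjusted p = 0.0581) and with only the 2 times compared (0.0767). Its call at 300 min was lost without either array of 0 min or replicate 1 of 300 min. With every row tested, none of the calls of Atf3, Maff, Rps6ka5 and Penk remained (adjusted p 0.279 to 0.497).

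**Figure D5:**
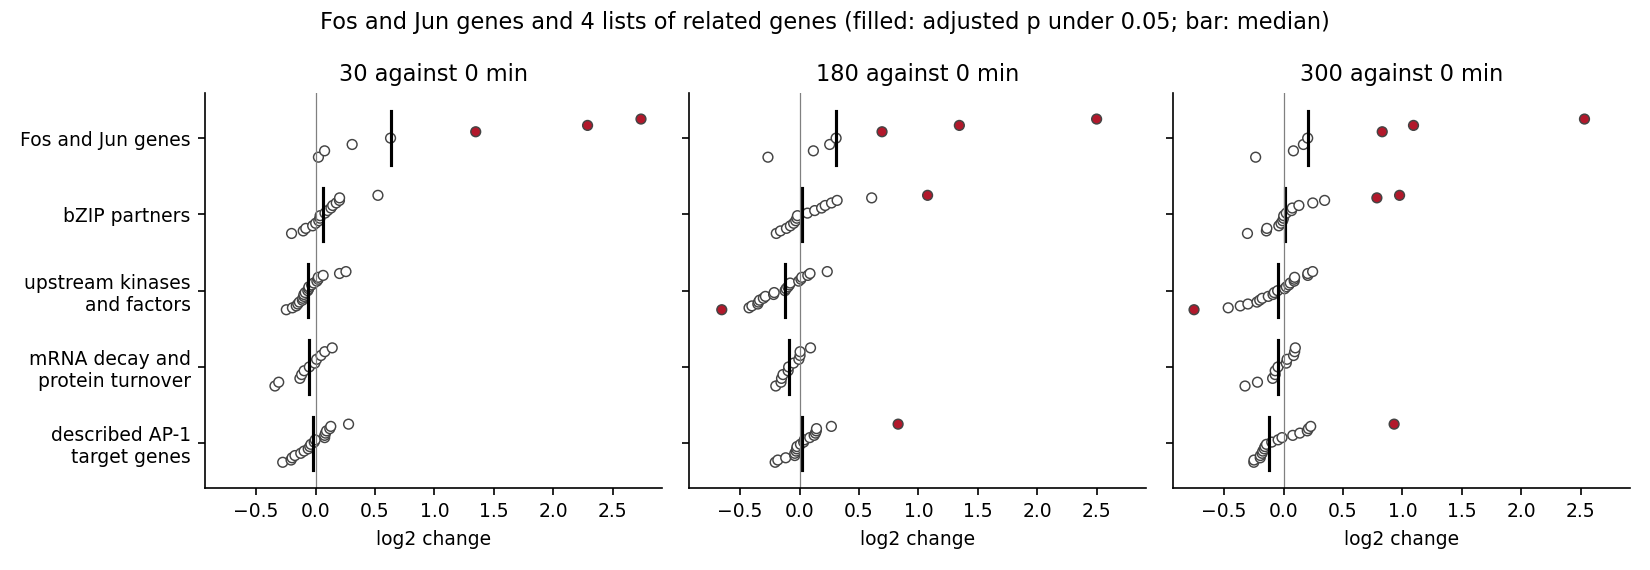
Log2 change from 0 min (horizontal axis) at 30, 180 and 300 min for the 7 Fos and Jun genes and for 4 lists of related genes (rows); each point is a gene, filled where the adjusted p is under 0.05, and bars are medians. The 3 filled Fos and Jun genes reach 2.74, 2.50 and 2.53 at their highest, and the 4 lists hold 0, 3 and 4 filled genes at 30, 180 and 300 min.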

How the data were processed

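RNA from cultured mouse hippocampal neurons was measured on 8 arrays, 2 per time. The deposited values were 1 log2 signal per transcript cluster and array; the log base was taken from the values (1.22 to 14.96). Background correction, summary, normalization, software and build are not given in the sources used here, and a correction that leaves background in would shrink the changes of dim genes.

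Of 35399 rows, 21789 had 1 gene symbol in the platform annotation, 1621 several and 11989 none. Per gene the cluster with the highest mean was kept (19938 genes), and no dim genes were removed. A mean per time was fitted to all 8 arrays with limma 3.58.1 in R 4.3.3 (lmFit and eBayes, 4 residual and 10.1 prior degrees of freedom), with two-sided tests, p-values adjusted by Benjamini-Hochberg over the 19938 genes (called under 0.05). Intervals are 95% confidence intervals of the moderated fit, SE is its moderated standard error. The number of arrays limits the precision. In 5 simulated data sets for 30 against 0 min over 19938 genes, 99.2% of changes of 1.2 and 42.6% of changes of 0.6 on the log2 scale were recovered, and 5.4% of calls were false. The noise was independent and normal, drawn from the variance prior of the fit, with 100 changed genes per size. The share of false calls was thus set by the simulation, and none of these shares measures the error or power of the real arrays.

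Members and gene lists were chosen with earlier results of these data known. All members are named, with list genes that passed against 0 min (or the 2 with the smallest F test p where none did) and the 3 genes most correlated with each member that passed the F test. Alternatives were quantile normalization, median-centred arrays, dim genes left out, every row tested, a variance trend, only the 2 times compared, a replicate block, the mean of a gene's clusters, and each array left out. Those for the list genes were added after seeing the data. Promoters came from RefSeq (GRCm38.p6) by symbol.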

Additional observations from a re-analysis of the deposited data

How the results depend on the processing

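Of 672 recomputed changes of the 7 genes, 609 kept their direction and side of the threshold, 43 lost a call, 3 gained one (Jun at 30 min) and 17 turned, all of them changes that had not passed. Testing every row, rows without a gene included, raised the count of rows to 35399 and lowered the prior degrees of freedom to 3.72, against 10.1 for the 19938 genes; the members called were then 2 at 30 against 0 min, 0 at 180 and 300 against 0 min, 0 at 180 and 300 against 30 min, and 1 over all times. Rows called in all were then 13, 1, 5, 9 and 26 in these 5 comparisons, against 19, 66, 57, 100 and 163 genes in the main fit. Rows and genes are unlike units, since a gene can have several rows. Without dim genes, 102, 99 and 204 genes were called at 180 and 300 against 0 min and 300 against 30 min. With a variance trend, 112, 92 and 157 genes were called at 180 and 300 against 0 min and 180 against 30 min. Over all times 261 genes were called with the trend and 13 rows with every row tested, against 162 genes in the main fit. Comparing only the 2 times gave 19 and 55 genes at 180 against 0 and 30 min.

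Leaving out each array in turn gave 2 to 3 members called at 30 and at 180 against 0 min, 1 to 3 at 300 against 0 min, 0 to 4 at 180 against 30 min, 1 to 4 at 300 against 30 min, 0 at 300 against 180 min and 3 to 5 over all times. Genes called in all then numbered 12 to 21, 15 to 68, 17 to 61, 17 to 93, 41 to 182, 0 to 14 and 49 to 171. Fosb minus Fos, later times against 30 min, ranged from 0.78 to 0.99.

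No effect shared by replicates of the same number was seen: correlations of replicate differences between times ran from −0.09 to 0.09. These values cannot tell whether replicates of the same number came from 1 dissection. With a replicate block the members called stayed at 3, 3, 3, 4, 4 and 0 in the 6 comparisons. The within-block permutation test of Fosb minus Fos (0.85) gave an exact p of 0.222. That is the smallest p this test can give over its 9 arrangements, so it could not reach 0.05. The block ended the calls of Rps6ka5 (adjusted p = 0.0516) and Penk (0.0545) at 180 min and of Atf3 (0.0535) at 300 min. Atf3 at 300 min also lost its call after quantile normalization (0.0619), after centring arrays (0.0751) and with only the 2 times compared (0.0861), as did Maff in the last (0.0543).

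Changes that turned are given with the range over arrays left out. After quantile normalization, Fosb was −0.0187 and Jun −0.014 at 300 against 180 min. With arrays left out, Fosb ran from −0.3787 to 0.4435 at 300 against 180 min, from −0.6497 to 0.1725 at 180 against 30 min and from −0.4868 to 0.0744 at 300 against 30 min. At 300 against 180 min Junb ran from −0.3766 to 0.1673, Jund from −0.1793 to 0.006 and Fosl1 from −0.2162 to 0.1495. At 180 against 30 min Jund ran from −0.147 to 0.0382 and Fosl1 from −0.0909 to 0.2748. Fosl1 also ran from −0.0895 to 0.1384 at 30 against 0 min, from −0.0665 to 0.2992 at 180 against 0 min and from −0.0553 to 0.1725 at 300 against 30 min. Of the list genes, Zfp36 ran from −0.0932 to 0.1845 at 30 against 0 min and Fbxw7 from −0.1077 to 0.2763 at 300 against 0 min (−0.0077 with its clusters averaged). The cause was not tested.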
